A study of Mus musculus with 23 samples.

Results

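The miR-132/miR-212 cluster consists of a pair of neighbouring microRNA (miRNA) genes, Mir212 and Mir132, each of which yields a hairpin precursor with a mature miRNA on its 5′ arm (5p) and on its 3′ arm (3p). Its 4 mature miRNAs, miR-132-3p, miR-132-5p, miR-212-3p and miR-212-5p, were taken by name from the 1915 names in each library's count table. All 4 were among the 669 miRNAs kept by the filter on low counts. The libraries were made from dissected cerebellum, cortex, hippocampus and olfactory bulb of C57BL/6 mice that were wild type or Cdr1as knockout. Cdr1as is a neuronal circular RNA best known for its many binding sites for miR-7, and it is not part of the cluster. Each region had 3 wild type and 3 knockout libraries, except knockout hippocampus with 2, which made 23 libraries in 8 groups. The labels name no stimulus, age or sex. Nothing in them tells whether replicates are separate animals, and p-values here reflect only the spread among these libraries, which may be technical. Induction of the cluster was not measured here.

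The cluster is a textbook example of an activity-regulated miRNA locus in neurons. The transcription factor CREB, acting downstream of synaptic activity and of the growth factor BDNF, drives one primary transcript that holds both hairpins. A mature miRNA guides Argonaute to messenger RNAs that pair with its seed, bases 2 to 8 from its 5′ end. MiR-132-3p is known to promote dendrite growth and spine maturation. The 3p arm is usually called the guide for both hairpins and the 5p arm the passenger. Argonaute loading was not measured in these libraries.

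The 4 mature sequences are shown because the seeds decide which members count as a family, and because each ratio below compares a pair of these strands. They are written 5′ to 3′ as RNA from RefSeq (GRCm38.p6, all on the + strand of chromosome 11), with the seed in capitals.
miR-132-3p: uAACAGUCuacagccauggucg
miR-212-3p: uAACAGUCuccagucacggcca
miR-132-5p: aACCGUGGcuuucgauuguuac
miR-212-5p: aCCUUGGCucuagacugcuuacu

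Both 3p arms carry the seed AACAGUC, and of 1679 mature names in the RefSeq table only these 2 have it. The 3p arms are identical over their first 9 bases and at 17 of 22 positions. Counted from the 5′ end, with the base of miR-132-3p first, they differ by A10C, C14U, U17C, U20C and G22A. The 5p arms have the seeds ACCGUGG and CCUUGGC, each found in 1 name of the table. Base by base, miR-132-5p and miR-212-5p match at 9 of 22 positions. When the first base of miR-132-5p is skipped, they match at 14 of 21 positions. A read that covers most of a 3p arm can be told apart by these differences, but how reads matching more than 1 miRNA were counted is not given in the sources used.

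The hairpins are shown with both mature arms in capitals, to make the origin of each strand visible.
Mir212: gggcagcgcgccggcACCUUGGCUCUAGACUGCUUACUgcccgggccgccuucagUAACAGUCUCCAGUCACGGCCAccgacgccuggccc
Mir132: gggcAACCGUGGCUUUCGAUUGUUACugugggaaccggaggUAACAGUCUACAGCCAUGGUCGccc
In GRCm38.p6 the Mir212 hairpin of 91 bases lies at chr11:75173388-75173478 and the Mir132 hairpin of 66 bases at chr11:75173682-75173747, with 203 bases between them. MiR-212-5p spans chr11:75173403-75173425, miR-212-3p chr11:75173443-75173464, miR-132-5p chr11:75173686-75173707 and miR-132-3p chr11:75173723-75173744. Both hairpins lie in intron 1 (75172598 to 75173977) of the 3-exon non-coding gene 1700016P03Rik on the same strand, in the GENCODE annotation of that build. The authors' own build was mm9, per the submitters' processing notes, so these positions are not those of their mapping.

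Total counts ran from 2328929 to 13070794 per library, and 2 libraries, knockout replicate 3 of cortex and knockout replicate 3 of olfactory bulb, had under 3000000. Olfactory bulb markers (the miR-200 family and miR-183 cluster, 8 miRNAs) summed to between 219005 and 393987 CPM in olfactory bulb libraries. CPM are read counts scaled to a common library total, here with library sizes adjusted by TMM, which is explained below. They summed to between 3676 and 6803 CPM in wild type cortex but only 141.5 to 444.8 CPM in knockout cortex. Choroid plexus markers (7 miRNAs) summed to 3061 to 13145 CPM in wild type hippocampus and 3281 to 3556 CPM in knockout hippocampus. Neuron markers (4 miRNAs) summed to between 42753 and 62056 CPM in all 23 libraries, but in wild type cortex against cerebellum 3 of the 4 were called higher and miR-124-3p was called lower (13827 CPM in cortex, 26834 CPM in cerebellum). No marker of the 7 lists was at 0 in a whole group. The part of these markers in the members' values was not tested. In bulk tissue, fewer cells of a type and less RNA per cell cannot be told apart.

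In wild type brain all 4 members were lowest in the cerebellum, intermediate in the hippocampus and highest in the cortex and olfactory bulb. Levels are CPM after TMM scaling, in which library sizes are adjusted so that most miRNAs keep the same level. The miR-132 guide arm miR-132-3p was at 812, 776 and 695 CPM in wild type cerebellum (replicates 1 to 3) and at 1753, 1491 and 1320 CPM in wild type hippocampus. It reached 3310, 3978 and 3630 CPM in wild type cortex and 3803, 4143 and 3668 CPM in wild type olfactory bulb. No cerebellum library overlapped with a library of another region, and no hippocampus library overlapped with cortex or olfactory bulb. Cortex and olfactory bulb overlapped. How many of all miRNAs separate by region in this way was not counted, here or for the members below. Sums of markers of other cells also differed between these regions. Red blood cell markers (3 miRNAs) summed to 32093 to 47211 CPM in wild type cerebellum and 3651 to 5546 in cortex. They summed to 4271 to 5740 in hippocampus and 8084 to 10213 in olfactory bulb. That sum was mostly miR-486a-5p, with counts of 16895 to 378072 per library, against at most 2152 for miR-451a and 307 for miR-144-3p. Choroid plexus markers summed to 11176 to 18506 CPM in wild type cerebellum, 2070 to 3015 in cortex and 4084 to 5170 in olfactory bulb. Of these, 1 of 3 red blood cell markers and 5 of 7 choroid plexus markers were called lower in cortex than in cerebellum. The median log2 change of the red blood cell list in that comparison was -0.37. Their part in the regional order of the members was not tested.

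MiR-212-3p, which shares the seed of miR-132-3p, was at 73.2, 68.1 and 65.8 CPM in wild type cerebellum. In wild type hippocampus it was at 285, 249 and 226 CPM. In wild type cortex it was at 465, 470 and 504 CPM, and in wild type olfactory bulb at 361, 371 and 442 CPM. The regions did not overlap for this miRNA, and its cortex libraries were all above its olfactory bulb libraries.

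The 5p arms were less abundant and had the same lowest region. MiR-132-5p was at 52.2, 47.2 and 43.8 CPM in wild type cerebellum, 146, 122 and 111 CPM in hippocampus, 300.2, 317 and 286 CPM in cortex, and 267, 278 and 238 CPM in olfactory bulb. MiR-212-5p, the least abundant member, was at 33.5, 28.2 and 31.2 CPM in wild type cerebellum, 117, 113 and 84.5 CPM in hippocampus, 185, 192 and 185 CPM in cortex, and 118, 136 and 143 CPM in olfactory bulb. Its cortex libraries stood apart from the other regions, while its lowest olfactory bulb value was just above its highest hippocampus value. Even this arm was counted at least 159 times in every library, and the highest count of a member was 35448, for miR-132-3p in olfactory bulb.

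**Figure D1:**
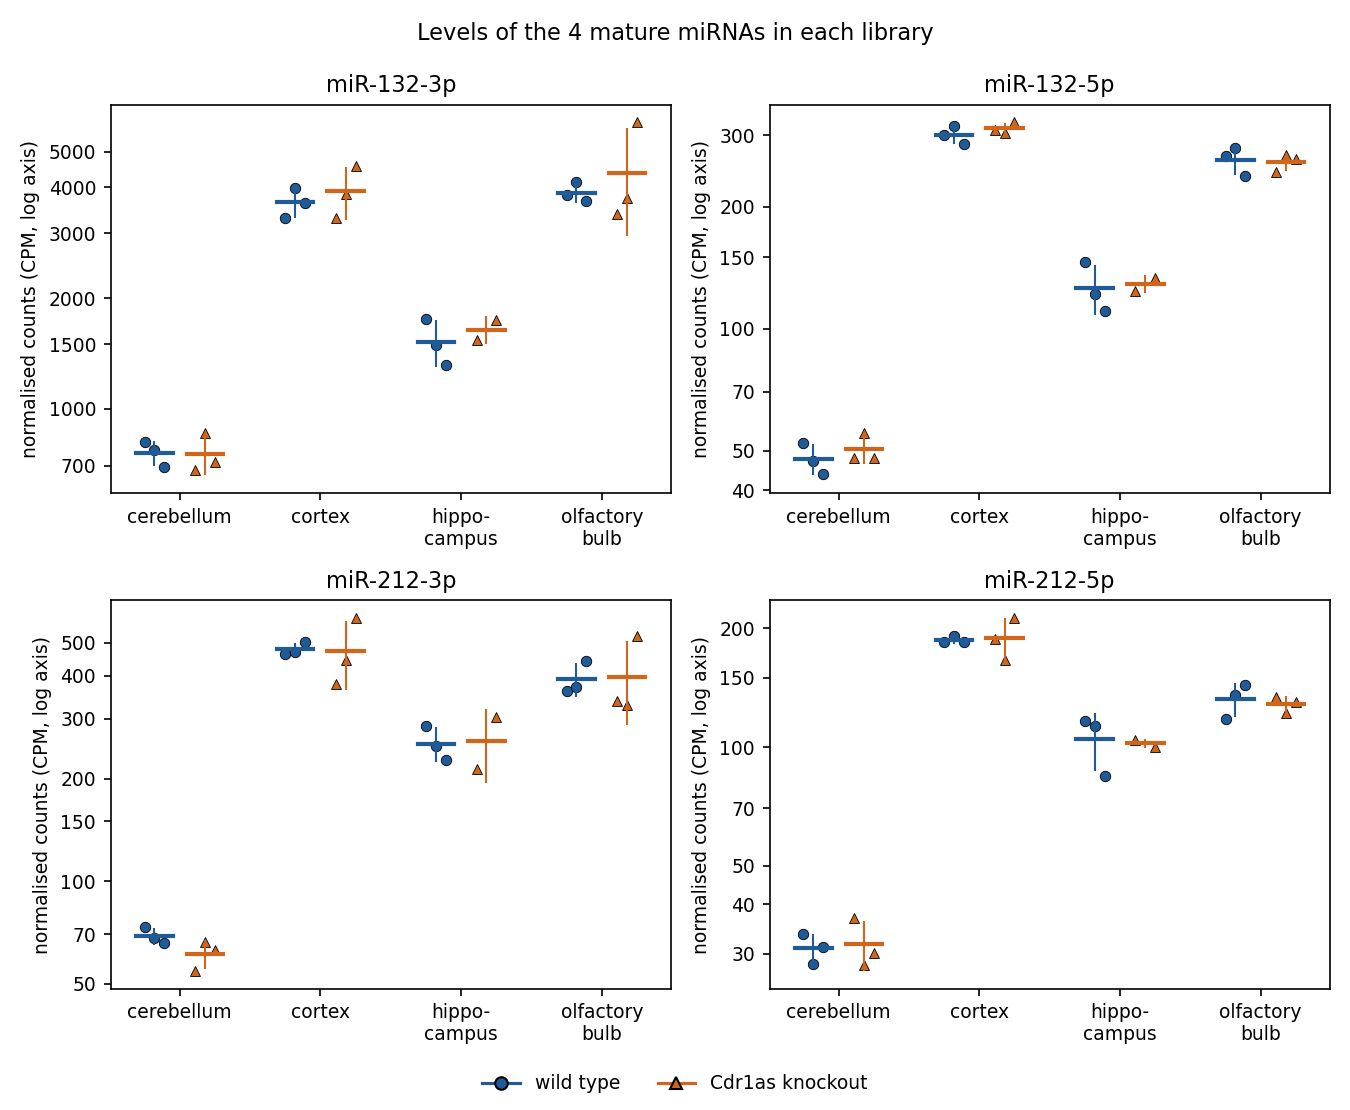
Normalised counts (CPM, log axis) of the 4 members in each library, by region, for wild type (circles) and Cdr1as knockout (triangles); horizontal bars are group means and vertical bars ± 1 SD. Every member is lowest in the cerebellum, and wild type and knockout points overlap in each region.

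The test over all wild type regions passed for 4 of 4 members, against 80% of all 669 miRNAs tested, so a regional difference is the rule among miRNAs and not a mark of the cluster. The adjusted p was 5.69e-10 for miR-132-3p, 2.38e-13 for miR-132-5p, 4.66e-10 for miR-212-3p and 1.90e-11 for miR-212-5p (edgeR's quasi-likelihood test, Benjamini-Hochberg adjusted over 669 miRNAs, as for every adjusted p of a level below). Cortex over cerebellum gave the widest range for 3 of the 4. MiR-132-3p was 4.78-fold higher in cortex than in cerebellum (95% interval 3.68 to 6.22) and miR-132-5p 6.30-fold (5.30 to 7.51). MiR-212-3p was 6.95-fold higher (5.25 to 9.20) and miR-212-5p 6.03-fold (4.90 to 7.43). All 4 passed, where 62.6% of all miRNAs did, in either direction. For miR-132-3p the olfactory bulb was higher still, 5.09-fold over cerebellum.

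Hippocampus exceeded cerebellum for 4 of 4 members, where 57.7% of all miRNAs passed. The fold was smallest for miR-132-3p, at 2.00 (95% interval 1.55 to 2.58, adjusted p = 5.69e-05), and largest for miR-212-3p, at 3.67 (2.80 to 4.81, adjusted p = 3.24e-08). MiR-132-5p was 2.64-fold and miR-212-5p 3.38-fold higher in hippocampus. Hippocampus was below cortex for 4 of 4 members, where only 20% of all miRNAs passed. There the miR-132 arms were 2.39-fold lower (both arms), miR-212-3p 1.89-fold and miR-212-5p 1.79-fold. Olfactory bulb exceeded cerebellum for 4 of 4 members, where 55.5% of all miRNAs passed, with folds from 4.26 for miR-212-5p to 5.67 for miR-212-3p.

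The sizes of the cerebellum comparisons depended on the processing, though 4 of 4 members kept their calls. Over the alternatives run, the log2 change of miR-132-3p ran from 1.89 to 2.93 in cortex over cerebellum. In hippocampus over cerebellum it ran from 0.88 to 1.68. The median of all miRNAs with library size alone was 0.66 and 0.75 in these comparisons. The top of the order also depended on scaling, and its values under TMM come first. Olfactory bulb and cortex differed for 1 of 4 members, where 53.2% of all miRNAs passed: miR-212-5p was 1.42-fold lower in olfactory bulb (log2 fold change -0.50, SE 0.14, adjusted p = 0.00371). The log2 difference was 0.09 for miR-132-3p (95% interval -0.27 to 0.45), -0.20 for miR-132-5p (-0.44 to 0.03) and -0.29 for miR-212-3p (-0.67 to 0.08). With library size alone as the scaling, the median of all miRNAs was -0.84 for olfactory bulb against cortex, and 4 of 4 members were then lower in olfactory bulb, where 66.1% of all miRNAs passed, miR-132-3p by a log2 change of -0.81. Relative to that median, miR-132-3p and the other members keep about the places they have under TMM.

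Olfactory bulb exceeded hippocampus for 4 of 4 members, where 53.4% of all miRNAs passed. MiR-132-3p was 2.54-fold and miR-132-5p 2.07-fold higher, miR-212-3p 1.54-fold and miR-212-5p 1.26-fold (adjusted p = 0.0421). With library size alone the median of all miRNAs was -0.92, only miR-212-5p of the 4 passed, where 68.6% of all miRNAs did, and it was then lower in olfactory bulb (log2 -0.57), as was miR-212-3p, which did not pass (-0.29). With upper quartile scaling 2 of 4 passed, the miR-132 arms, where 51.6% of all miRNAs did. The call for miR-212-5p was also lost in 5 of 23 leave-one-out fits, without wild type replicate 3, knockout replicate 2 or knockout replicate 3 of hippocampus, or wild type replicate 2 or 3 of olfactory bulb, at log2 changes from 0.22 to 0.34. It was lost with no filter on low counts as well (0.21). When the olfactory bulb and choroid plexus markers were left out of the scaling, 4 of 4 passed, where 54% of all miRNAs did.

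**Figure D2:**
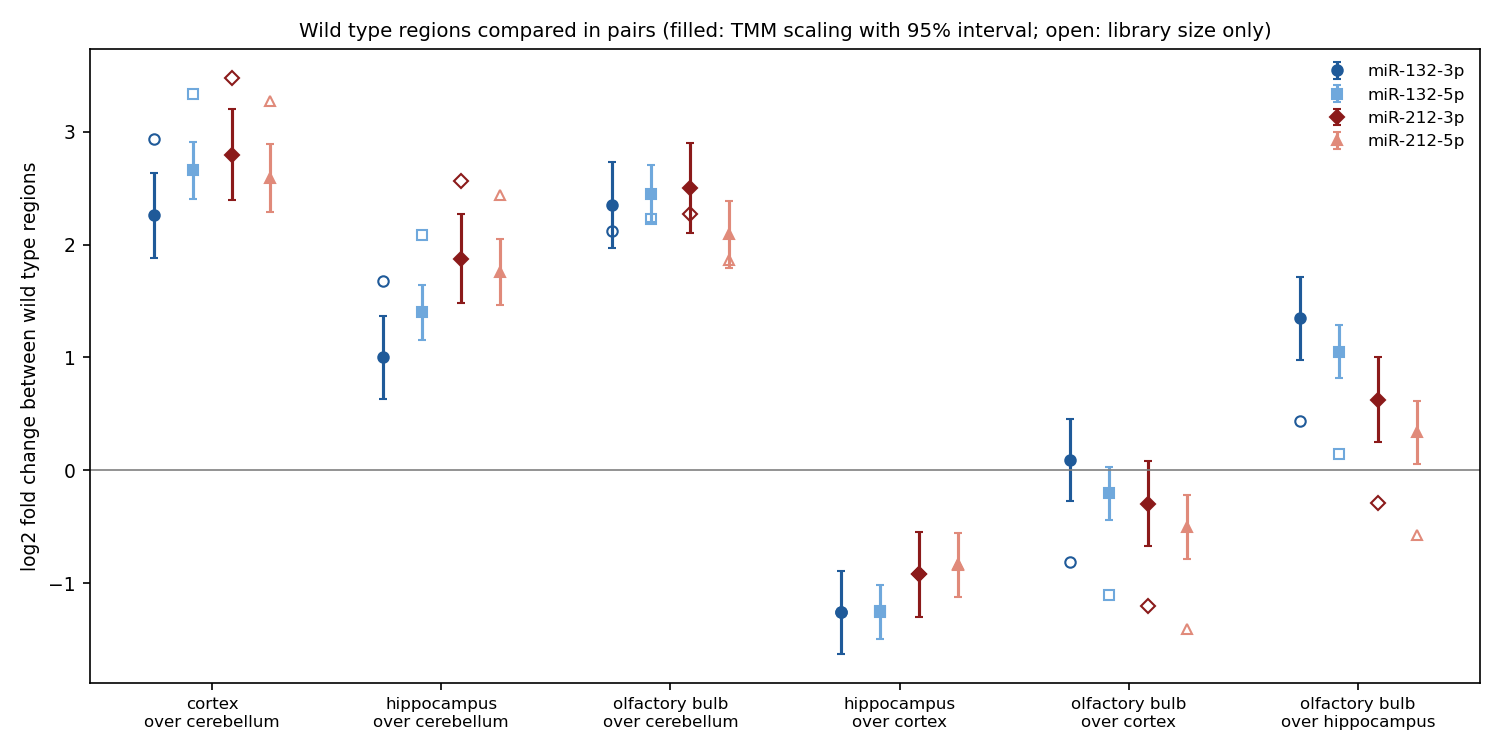
Log2 fold change between pairs of wild type regions for the 4 members, with 95% intervals under TMM scaling (filled) and the value with library size only (open). All members are lower in cerebellum under both scalings, while the open points of the olfactory bulb comparisons lie below the filled ones by about the shift of all miRNAs.

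The 3p arm outnumbered the 5p arm of its own hairpin in every library, much more so for Mir132 than for Mir212. A ratio of 2 counts in the same library does not depend on library scaling, but ligation and amplification differ between sequences, so a ratio describes reads and not molecules. In wild type the miR-132 arm ratio (3p over 5p) was 15.5, 16.4 and 15.9 in cerebellum and 14.2, 14.9 and 15.4 in olfactory bulb. It was 11.02, 12.6 and 12.7 in cortex and 12.02, 12.3 and 11.9 in hippocampus. Cerebellum and olfactory bulb were both above cortex and hippocampus, with no overlap between these pairs of regions. The ratio differed over the wild type regions (exact permutation test of the sum of squares between regions, adjusted p = 0.00273 over 3 ratios, 12 libraries). The highest region mean was 1.32-fold the lowest.

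The miR-212 arm ratio had its lowest mean in wild type cerebellum, at 2.18, 2.41 and 2.11, and its highest in olfactory bulb, at 3.07, 2.74 and 3.08. Cortex, at 2.52, 2.45 and 2.73, and hippocampus, at 2.44, 2.20 and 2.68, overlapped. Hippocampus also overlapped with cerebellum, and pairs of regions were not tested for this ratio. This ratio also differed over regions (exact permutation test, adjusted p = 0.00942), with olfactory bulb 1.33-fold over cerebellum. The hairpins did not share one order of regions: the cerebellum had the highest mean arm ratio for Mir132 and the lowest for Mir212.

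The ratio of the guide arms, miR-132-3p over miR-212-3p, had the widest regional range of the 3. It was 11.1, 11.4 and 10.6 in wild type cerebellum, 10.5, 11.2 and 8.29 in olfactory bulb, 7.11, 8.47 and 7.20 in cortex and 6.15, 5.99 and 5.84 in hippocampus. Hippocampus was below all other regions without overlap, and cortex was below cerebellum. The difference over regions passed (exact permutation test, adjusted p = 0.00273), with cerebellum 1.84-fold over hippocampus. Counted as one seed family, miR-132-3p and miR-212-3p summed to 830 ± 63.4 CPM in wild type cerebellum, 1775 ± 248 in hippocampus, 4119 ± 337 in cortex and 4263 ± 220 in olfactory bulb (SD, n = 3 each). MiR-132-3p gave 91.7% of the family in cerebellum, 90.8% in olfactory bulb, 88.3% in cortex and 85.7% in hippocampus.

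**Figure D3:**
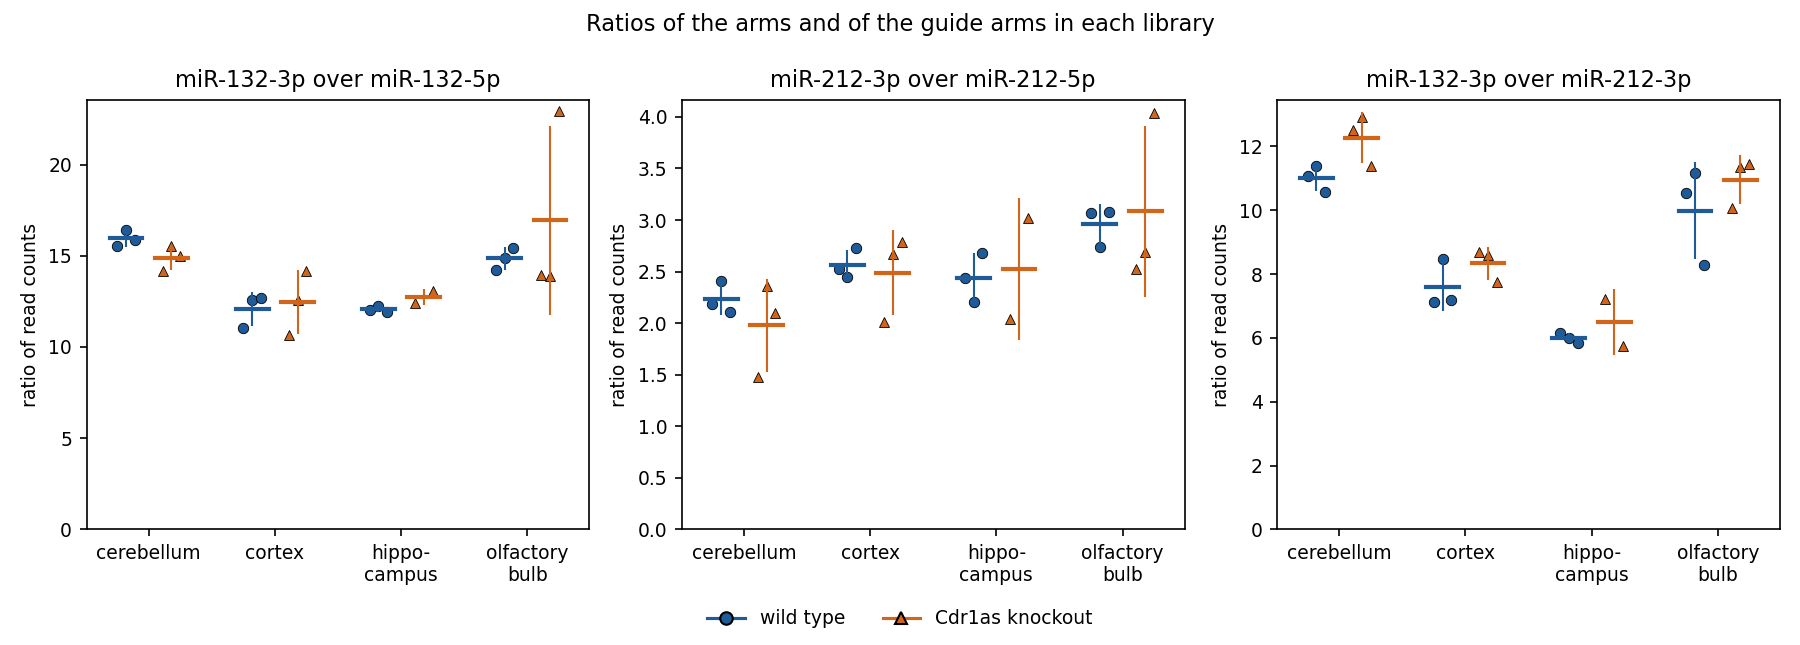
Ratio of read counts in each library for miR-132-3p over miR-132-5p, miR-212-3p over miR-212-5p and miR-132-3p over miR-212-3p, by region, for wild type (circles) and Cdr1as knockout (triangles), with group means and ± 1 SD. In olfactory bulb 1 knockout library has arm ratios of 22.9 and 4.04, above all others of its region.

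Loss of Cdr1as was compared next, in each region and as the mean of the 4 within-region differences. No level of a member passed: 0 of 4 in cerebellum, where 0.149% of all miRNAs passed, 0 of 4 in cortex (2.09%), 0 of 4 in hippocampus (0%), 0 of 4 in olfactory bulb (0.149%) and 0 of 4 for the mean (1.49%). At an unadjusted p under 0.05 the count of members was also 0 in each, with edgeR, where 1.94% of all miRNAs were under it in cerebellum, 4.63% in cortex, 5.83% in hippocampus, 2.99% in olfactory bulb and 5.83% for the mean. Limma-voom and DESeq2 called 0 members in each as well. The background was low in every one of these comparisons, so the members' counts match what most miRNAs did. In hippocampus, where edgeR called 0 miRNAs, 39 had an unadjusted p under 0.05, limma-voom called 2 and DESeq2 called 3.

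MiR-132-3p was at 682, 858 and 718 CPM in knockout cerebellum, 3293, 3825 and 4581 CPM in knockout cortex, 1542 and 1742 CPM in knockout hippocampus (replicates 2 and 3), and 3394, 3734 and 6008 CPM in knockout olfactory bulb. The ranges of wild type and knockout overlapped in every region for every member. The share of all miRNAs that overlap in this way was not counted. For miR-132-3p the mean log2 change over regions was 0.09 (SE 0.09, 95% interval -0.09 to 0.28, adjusted p = 1). On the linear scale that interval spans 0.937-fold to 1.21-fold. With both libraries under 3000000 counts left out, an alternative chosen after seeing the data, the value was -0.01.

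MiR-212-3p was at 54.5, 66.3 and 63.1 CPM in knockout cerebellum, 379, 445 and 591 CPM in knockout cortex, 213 and 302 CPM in knockout hippocampus, and 337, 329 and 525 CPM in knockout olfactory bulb. Its largest regional difference was in cerebellum, a log2 change of -0.17 (95% interval -0.56 to 0.21, adjusted p = 1). Its mean log2 change was -0.04 (95% interval -0.23 to 0.16). The spread of both guide arms was larger in the knockout than in the wild type libraries of cerebellum, cortex and olfactory bulb. In hippocampus, with 2 knockout libraries, the SD was larger in knockout for miR-212-3p (63.1 against 29.7 CPM). For miR-132-3p it was smaller there (142 against 218 CPM). The SD of miR-132-3p in olfactory bulb was 1422 CPM in knockout and 245 CPM in wild type (n = 3 each). These differences in spread were not tested.

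In knockout cortex and olfactory bulb the 5p arms varied less than the 3p arms. MiR-132-5p was at 48.1, 55.2 and 47.9 CPM in knockout cerebellum, 309, 305 and 323 CPM in cortex, 124 and 134 CPM in hippocampus, and 243, 268 and 262 CPM in olfactory bulb, with a mean log2 change of 0.04 (95% interval -0.09 to 0.16). MiR-212-5p was at 36.9, 28.1 and 30.0 CPM in knockout cerebellum, 188, 166 and 212.4 CPM in cortex, 104 and 100.3 CPM in hippocampus, and 134, 122 and 130.0 CPM in olfactory bulb, with a mean log2 change of -0.01 (95% interval -0.15 to 0.14). The test of a genotype effect that differs between regions passed for 0 of 4 members (adjusted p = 0.996 for each), in a test that 1.64% of all miRNAs passed. None of the 4 had an unadjusted p under 0.05, where 3.89% of all miRNAs did. By limma-voom and DESeq2 the count of members in that test was 0 too.

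**Figure D4:**
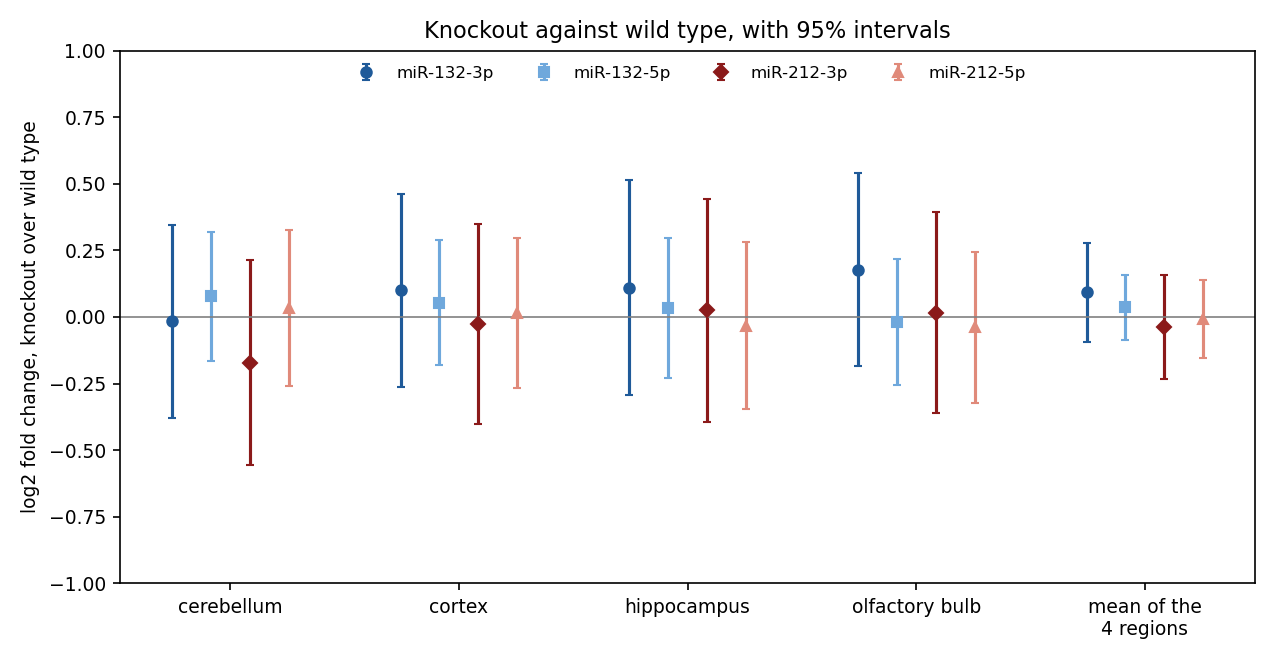
Log2 fold change of knockout over wild type for the 4 members in each region and as the mean of the 4 regions, with 95% intervals from edgeR's fit to 23 libraries. Every interval includes 0, and the intervals of the mean lie between -0.23 and 0.28.

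The olfactory bulb library of knockout replicate 3 stood apart by its 3p arms. MiR-132-3p was 6008 CPM there against 3394 and 3734 CPM in the other 2 knockout libraries, and miR-212-3p was 525 CPM against 337 and 329. The 5p arms of the same library were within the range of the others, at 262 CPM for miR-132-5p and 130.0 CPM for miR-212-5p. Its total count was 2530737, the second lowest of the 23, and its olfactory bulb markers, at 219005 CPM, were the lowest of the region. The cortex library of knockout replicate 3, with the lowest total, had the highest levels of its region for all 4 members, the 5p arms included (323 CPM for miR-132-5p and 212.4 CPM for miR-212-5p). The part of depth in these values was not tested. Without the olfactory bulb library the change of miR-132-3p in that region was -0.12 instead of 0.18 on the log2 scale, and neither passed.

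The arm ratios of the hairpins did not pass between genotypes over the regions. In knockout the miR-132 arm ratio was 14.2, 15.5 and 14.98 in cerebellum, 10.7, 12.6 and 14.2 in cortex, 12.4 and 13.05 in hippocampus, and 14.0, 13.9 and 22.9 in olfactory bulb. The mean log2 difference over regions was 0.04 (two-sided exact permutation test exchanging genotypes within regions, p = 0.646, adjusted p = 0.646 over 3 ratios), and it was -0.02 without the olfactory bulb library of knockout replicate 3. In a single region the exact test gave p = 0.1 in cerebellum, where every knockout library was below every wild type library (log2 difference -0.10), and in hippocampus, where every knockout library was above (0.077); 0.1 is the smallest p that 3 libraries against 3 or 2 allow. If the cerebellum libraries are paired by number, which the labels do not say, the log2 differences were -0.13, -0.081 and -0.084. The paired exact permutation p was then 0.25, the smallest that 3 pairs allow. The miR-212 arm ratio was 1.48, 2.36 and 2.10 in knockout cerebellum, 2.02, 2.67 and 2.78 in cortex, 2.04 and 3.02 in hippocampus, and 2.52, 2.69 and 4.04 in olfactory bulb. Its mean log2 difference was -0.05 (exact permutation test, p = 0.61, adjusted p = 0.646).

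The ratio of miR-132-3p to miR-212-3p was slightly higher in knockout in 4 of 4 regions. In knockout it was 12.5, 12.9 and 11.4 in cerebellum, 8.68, 8.60 and 7.75 in cortex, 7.24 and 5.76 in hippocampus, and 10.1, 11.3 and 11.45 in olfactory bulb. Wild type and knockout overlapped in each region. The mean log2 difference was 0.14, or 1.10-fold (exact permutation test over 23 libraries, p = 0.0141, adjusted p = 0.0423 over 3 ratios), and the regional values ran from 0.11 in hippocampus to 0.15 in cerebellum. In a single region the exact test gave p between 0.2 and 0.6.

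That call on the guide-arm ratio was fragile. In 15 of 23 leave-one-out runs the adjusted p rose above 0.05, with mean log2 differences between 0.09 and 0.14. These were the runs without cerebellum wild type 1 or 3 or knockout 1 or 2, cortex wild type 1 or 3 or knockout 1 or 2, hippocampus wild type 1, 2 or 3 or knockout 2, and olfactory bulb wild type 3 or knockout 2 or 3. The lowest value, 0.09 (adjusted p = 0.182 by the exact permutation test), came without knockout replicate 2 of hippocampus. With both libraries under 3000000 counts left out the value was 0.14 (adjusted p = 0.0747 by the exact permutation test). If libraries with the same number came from the same mouse, which the labels do not say, all regions of a number are exchanged together, and the exact p is 0.2 (adjusted 0.6) in a design that cannot go below 0.1.

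Across the 23 libraries the members' log2 CPM moved together, with Pearson's r from 0.912 (miR-132-3p with miR-212-5p) to 0.977 (the arms of each hairpin). These points share regions, genotypes and sequencing depth, so r is a description. After each group's mean was subtracted, miR-132-3p and miR-212-3p kept r = 0.83 and the arms of Mir132 r = 0.603, while the arms of Mir212 had r = 0.248. Without the olfactory bulb library of knockout replicate 3 these were 0.717, 0.795 and 0.285 over 22 libraries. The order of the first pair of values thus changed with 1 library.

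Outside the cluster, the 5 miRNAs whose log2 CPM was most like that of miR-132-3p over the 23 libraries were miR-128-3p (Pearson's r = 0.957), miR-1981-3p (0.955), miR-369-5p (0.946), miR-184-3p (0.923) and miR-676-5p (0.918). For miR-212-3p they were miR-1981-3p (0.986), miR-369-5p (0.980), miR-128-1-5p (0.957), miR-128-3p (0.955) and miR-298-5p (0.948). MiR-128-3p, miR-1981-3p and miR-369-5p stood in both lists. MiR-1981-3p was closer to miR-212-3p than miR-132-3p was (r = 0.950). In level they differed widely: miR-128-3p, a neuron-enriched miRNA, was at 11200 ± 582 CPM in wild type cerebellum and 27737 ± 1246 CPM in cortex (SD, n = 3 each), miR-369-5p, of the imprinted Dlk1-Dio3 cluster, at 132 ± 8.46 and 673 ± 22.4 CPM, and miR-1981-3p at 8.16 ± 0.673 and 20.2 ± 1.62 CPM.

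**Figure D5:**
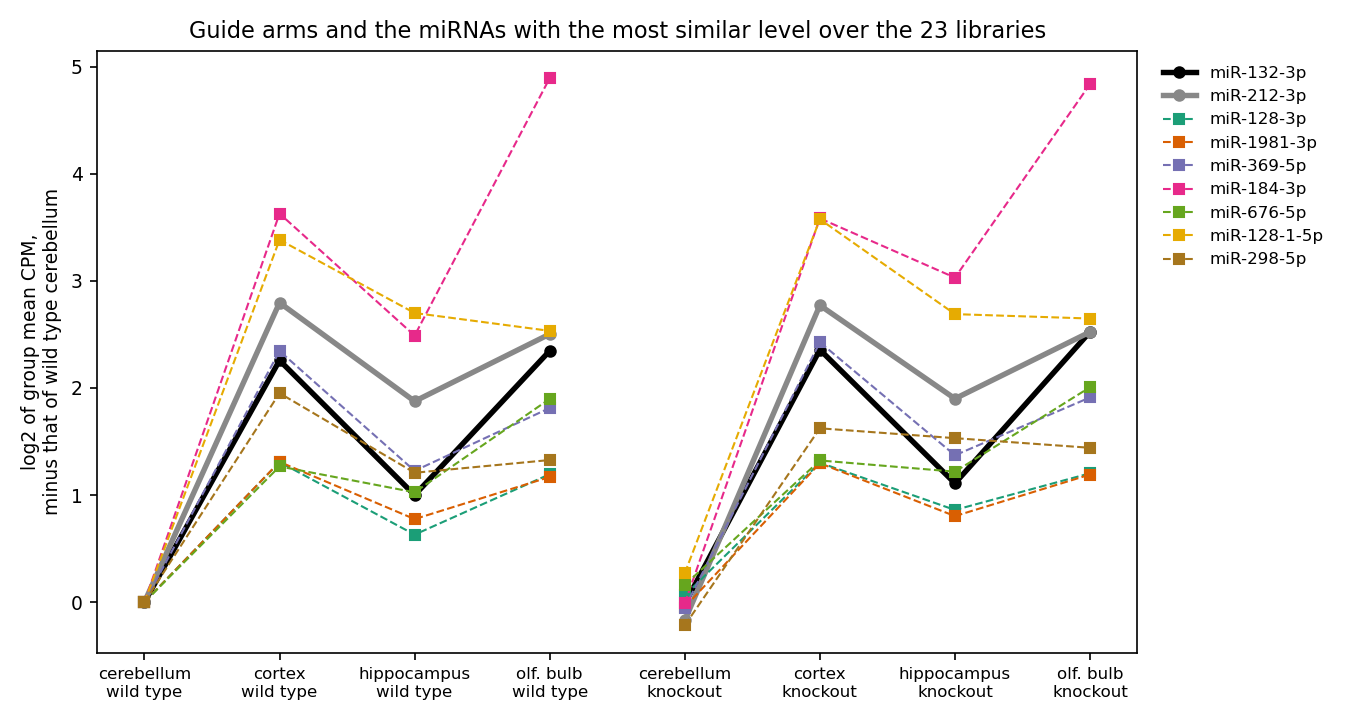
Log2 of the group mean CPM minus that of wild type cerebellum for both guide arms (thick lines) and the 7 miRNAs most like them over the 23 libraries (dashed), in the 8 groups. All are lowest in cerebellum, and of the dashed lines miR-184-3p and miR-676-5p have their highest mean in olfactory bulb.

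Other miRNAs linked to neuronal activity gave the wider context. Of 16 such miRNAs listed from background knowledge, 16 were tested and 0 passed in any knockout comparison, and 0 had an unadjusted p under 0.05, like the 4 members. The median log2 change of the list was 0.02 for the mean of the regions, against -0.0029 over all miRNAs tested. Over the wild type regions 13 of 16 passed, against 80% of all miRNAs. The widest ranges of region means were in miR-184-3p (29.8-fold), miR-34a-5p (11.7-fold), miR-137-3p (11.51-fold) and miR-219a-5p (4.03-fold).

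Those 4 did not all share the cluster's order of regions. MiR-184-3p had the same order as miR-132-3p. It was at 1.23 CPM in wild type cerebellum, 6.91 in hippocampus, 15.2 in cortex and 36.6 in olfactory bulb. MiR-34a-5p, a p53 target, was highest in cerebellum (271 CPM) and lowest in olfactory bulb (23.1 CPM). MiR-137-3p, a regulator of synaptic proteins, was at 444 CPM in hippocampus and 396 CPM in cortex against 38.5 CPM in cerebellum. MiR-219a-5p, which is also an oligodendrocyte miRNA, was highest in cerebellum (169 CPM) and lowest in olfactory bulb (41.9 CPM). In cortex over cerebellum 6 of the 16 were called higher and 5 lower, near the background of 211 higher and 208 lower of 669 (62.6%).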

How the data were processed

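The authors deposited 1 table per library of raw counts for mature miRNAs. TRIZOL was used to extract total RNA and the TruSeq Small RNA kit to make libraries, per the labels' protocols. The build mm9 comes from the submitters' processing notes; aligner and counting rules are not given in the sources used. Libraries of a group were checked for duplicates and none was found (chi-square per degree of freedom 28.4 to 242, 22 pairs).

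From the counts, edgeR 4.0.16 in R 4.3.3 kept 669 of 1459 miRNAs (filterByExpr with the 8 groups, minimum count 10, minimum total 15), scaled by TMM and fitted 1 quasi-likelihood model to 23 libraries. Tests were two-sided, with Benjamini-Hochberg adjustment over 669 miRNAs and a threshold of 0.05. Alternatives were limma 3.58.1 (voom), DESeq2 1.42.0, other scalings, no filter and each library left out. Ratios of counts, with 0.5 added for log2 values, were tested by exact permutation. Sequences were matched by name in RefSeq's table for 4 of 4 members. Methods were tested on simulated data. PCR duplicates cannot be removed without molecular identifiers, so counts are not numbers of molecules.

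Named miRNAs are the members, the 5 most like each guide arm by Pearson's r of log2 CPM (prior count 2), and, of the activity-linked list, those called in a knockout comparison (at most 4) and the 4 of widest regional range among those called over wild type regions. Members and lists were chosen with earlier results of these data known. Pairing of wild type and knockout by replicate number is not in the labels. In cerebellum 3 of 3 correlations of deviations from group means of same-numbered libraries exceeded 0.1 (0.103 to 0.374). Same-numbered libraries of different regions exceeded it in 6 of 18 wild type pairs and 4 of 15 knockout pairs. Libraries of different numbers were not compared, so this cannot tell whether libraries are paired.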

Additional observations from a re-analysis of the deposited data

Results flagged for a closer look

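The miR-132 arm ratio (miR-132-3p over miR-132-5p) moved in opposite directions in a pair of regions, with no overlap between genotypes in either. It was picked for that lack of overlap out of 3 ratios in 4 regions, so the lack of overlap is no test. The other ratios and regions showed no such separation. In cerebellum the 3 knockout libraries (14.2, 15.5 and 14.98) were below the 3 wild type libraries (15.5, 16.4 and 15.9), a log2 difference of -0.10. The highest knockout and the lowest wild type value, 15.542 and 15.544, nearly touched. In hippocampus the 2 knockout libraries (12.4 and 13.05) were above the 3 wild type libraries (12.02, 12.3 and 11.9), a log2 difference of 0.077. Each gave an exact permutation p of 0.1 with libraries exchanged freely, the smallest possible at these numbers, and the difference between the regions was not tested. With the cerebellum libraries paired by number, which the labels do not state, the log2 differences within the 3 pairs were -0.13, -0.081 and -0.084. The paired exact permutation p was then 0.25, the smallest that 3 pairs allow. Choroid plexus markers in these hippocampus libraries summed to 3061 to 13145 CPM in wild type and 3281 to 3556 CPM in knockout, and their part in the ratio was not tested.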

How the results depend on the processing

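No member passed between genotypes in any region, in the mean or in the interaction under any alternative run, and 4 of 4 kept their calls in the comparisons of cerebellum with the other regions and of hippocampus with cortex. Values here are log2 changes of knockout over wild type unless a region pair is named; all sign changes between genotypes were of values that did not pass, and the cause of each change below was not tested. Upper quartile scaling gave 0.010 for miR-132-3p in cerebellum, 0.125 and 0.0078 for miR-212-3p in cortex and the mean, and 0.033 for miR-212-5p in the mean, and it called 2 members in olfactory bulb against hippocampus. Library size only gave 0.032 for miR-132-3p in cerebellum, -0.0044 for miR-212-5p in cortex, -0.050 and -0.066 for miR-132-5p and miR-212-3p in hippocampus. It called 4 members in olfactory bulb against cortex (miR-132-3p at -0.81) and 1 in olfactory bulb against hippocampus (miR-212-3p at -0.29, miR-212-5p at -0.57). MiR-212-3p in olfactory bulb was -0.0035 with DESeq2's size factors, -0.0045 with DESeq2, -0.028 with limma-voom, -0.042 without a filter and -0.0029 in a fit of that region alone. MiR-212-5p in cortex was -0.0017 with limma-voom and -0.0062 without a filter, and 0.023 in the mean without cortex. Leaving out both libraries under 3000000 counts, chosen after seeing the data, gave -0.025 and -0.071 for miR-132-3p and miR-212-5p in cortex, -0.11 and -0.22 for miR-132-3p and miR-212-3p in olfactory bulb, -0.010 for miR-132-3p in the mean, -0.044 for the miR-132 arm ratio and 0.141 for the guide-arm ratio, which then did not pass. That ratio, 0.136, did not pass either when all regions of a number were exchanged together.

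Leaving out 1 library at a time, the values of miR-132-3p ran from -0.12 to 0.050 in cerebellum, -0.028 to 0.21 in cortex, -0.0073 to 0.22 in hippocampus and -0.12 to 0.33 in olfactory bulb. Those of miR-132-5p ran from -0.048 to 0.15 in hippocampus and -0.082 to 0.022 in olfactory bulb. MiR-212-3p ran from -0.22 to 0.11 in cortex, -0.28 to 0.26 in hippocampus, -0.23 to 0.13 in olfactory bulb and -0.12 to 0.017 in the mean. MiR-212-5p ran from -0.090 to 0.11 in cerebellum, -0.074 to 0.098 in cortex, -0.16 to 0.052 in hippocampus, -0.13 to 0.022 in olfactory bulb and -0.041 to 0.015 in the mean. The arm ratios ran from -0.019 to 0.071 for miR-132 and -0.12 to 0.020 for miR-212, and the guide-arm ratio from 0.095 to 0.18.

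With the replicate number as a block, 0 members passed between genotypes; miR-212-5p was 0.066 in hippocampus and 0.016 in the mean and miR-212-3p -0.010 in olfactory bulb, and the guide-arm ratio kept its call (exact permutation adjusted p = 0.0278). The block changed no call of a member. Same-numbered wild type and knockout libraries correlated above 0.1 in 1 of 3 pairs of cortex, 0 of 2 of hippocampus and 1 of 3 of olfactory bulb. Libraries of different numbers were not compared, so these values cannot tell whether same-numbered libraries are paired. The lowest count of a member in a library was 159.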
